A study of Mus musculus with 6 samples.

Results

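The genes described here are 10 genes that kidney tubule cells are known to switch on, or to use differently, when they are injured and when they repair: Havcr1, Lcn2, Vcam1, Gdf15, Tnfrsf12a, Cdkn1a, Krt8, Krt18, Sox9 and Clu. They were chosen by symbol, with earlier results of these data known, and are 10 of the 28208 genes that all 6 count matrices list. Their mRNA molecules were counted cell by cell, as unique molecular identifiers (UMIs, 1 for each captured molecule), in 6 mouse kidneys: 2 naive kidneys, 2 rejecting allografts and 2 tolerized allografts. Marker genes assigned the cells to proximal tubule-like, thick ascending limb-like, distal tubule-like and collecting duct-like classes. The UMIs of a class were added up within each kidney, and kidneys, not cells, served as replicates (n = 2 per group). The labels number the replicates without saying what separates them, and p-values therefore measure only the spread between these samples. The study's supplement places the kidneys in 2 experiments, which the labels do not tie to the replicate numbers, so the main test had no term for them.

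Naive kidneys were untransplanted kidneys of WT male C57BL/6 (B6) mice of 10 to 12 weeks. Rejecting kidneys were BALB/c kidneys, labelled with an age of 6 to 7 weeks, that had been placed in B6 males without kidneys of their own and were collected on day 15. Tolerized kidneys were transplanted in the same way and collected on the same day, and the B6 recipients had also received BALB/c splenocytes treated with ethylenecarbodiimide (ECDI), a crosslinker used to make donor cells apoptotic before infusion. The labels give the infusions as day 7 and day +1, and the study's methods place the earlier one before transplantation. Graft cells from the recipient were not separated from donor cells. The naive kidneys differed from both transplanted groups in strain, age, list of genes in the matrix and barcodes of their libraries as well as in transplantation. The study's methods allow BALB/c donors of either sex, so the sex of the kidney may differ as well. These differences cannot be told apart here.

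Injured tubule cells lose part of their transport program, rebuild their cytoskeleton, and send signals to neighboring cells and leukocytes, and those that survive can redifferentiate. Havcr1 encodes KIM-1, a receptor with which proximal tubule cells bind and engulf dying cells, and Lcn2 encodes NGAL, a secreted protein that binds iron-carrying siderophores and is made mostly by distal nephron segments; both are used in the clinic as markers of tubular injury. Vcam1 encodes an adhesion molecule for leukocyte integrins that proximal tubule cells keep when repair fails. Gdf15 encodes a stress-induced cytokine, Tnfrsf12a the receptor for the cytokine TWEAK, and Cdkn1a the cell cycle inhibitor p21. Krt8 and Krt18 encode keratins that pair in the intermediate filaments of simple epithelia, Sox9 encodes a transcription factor of nephron development and repair, and Clu encodes clusterin, a secreted chaperone.

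The genes lie at separate loci of the GRCm38 (mm10) build. Havcr1 spans chr11:46735080-46779578, Sox9 chr11:112782224-112787760, Lcn2 chr2:32384633-32388252, Vcam1 chr3:116109949-116129688, Gdf15 chr8:70629393-70632456, and Clu chr14:65968483-65981547. Cdkn1a (chr17:29090976-29100727) and Tnfrsf12a (chr17:23675445-23677468) share a chromosome. Krt8 (chr15:101996698-102004482) and Krt18 (chr15:102028180-102032027) are neighbors, with 23697 bases between them.

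Lcn2, Gdf15 and Tnfrsf12a were the members that differed between tolerized and rejecting kidneys in thick ascending limb-like cells, and the 250 bases before their start sites are shown for that reason, with the bases from 40 to 21 before the start, where a TATA box lies in promoters that have one, in capitals. The sequences are those of RefSeq on GRCm38.p6, read 5′ to 3′ on the strand of the gene, at chr2:32387740-32387989, chr8:70632457-70632706 and chr17:23677450-23677699, all on the minus strand. The gene spans given above are those of GENCODE, whose start sites can differ from the RefSeq ones used here. The Lcn2 window lies inside the span given for Lcn2, and the Tnfrsf12a window overlaps the span given for Tnfrsf12a.
Lcn2: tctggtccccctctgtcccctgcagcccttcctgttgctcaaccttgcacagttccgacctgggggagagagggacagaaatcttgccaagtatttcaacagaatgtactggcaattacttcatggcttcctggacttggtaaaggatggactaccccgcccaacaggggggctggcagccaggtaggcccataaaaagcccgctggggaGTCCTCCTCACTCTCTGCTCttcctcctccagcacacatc
Gdf15: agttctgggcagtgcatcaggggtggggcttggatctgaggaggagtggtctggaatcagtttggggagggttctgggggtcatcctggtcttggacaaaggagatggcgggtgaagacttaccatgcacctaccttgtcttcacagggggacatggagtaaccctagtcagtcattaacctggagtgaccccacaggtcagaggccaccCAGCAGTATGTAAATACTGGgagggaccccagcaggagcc
Tnfrsf12a: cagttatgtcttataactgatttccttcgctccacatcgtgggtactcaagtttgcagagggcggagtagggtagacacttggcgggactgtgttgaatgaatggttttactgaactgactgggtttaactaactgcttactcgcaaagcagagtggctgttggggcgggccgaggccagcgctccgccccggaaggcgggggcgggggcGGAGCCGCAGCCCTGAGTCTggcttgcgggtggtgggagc

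The window shown for Tnfrsf12a holds 15 CpG pairs, against 3 for Lcn2 and 1 for Gdf15. Another window of Gdf15, before a different start site and not shown, holds 6. Promoter windows of 300 bases were found for 7 of the 10 genes, in 11 windows, and were searched on both strands for an AP-1 site (TGANTCA), a kappa B site (GGGA, NN and TTCC in a row), a gamma-activated sequence (TTCNNNGAA) and a TATA box (TATAAA). The AP-1 letters were found in 1 window of Havcr1 and in 7.81% of all 32851 windows, and the TATA letters in the window of Krt8 and in 13.6% of all windows. In Havcr1 the AP-1 letters begin at base +11, after the start site. In Krt8 the TATA letters begin at bases -3 and -1, outside the span where a TATA box lies. The kappa B letters (1.47% of all windows) and the gamma-activated sequence (8.3%) were in no window of these genes. Vcam1, Sox9 and Clu had no window.

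Libraries held 34874702 to 96803926 UMIs, and 5608 to 10483 cells per kidney were used. The 4 classes held 17036 proximal tubule-like cells (975 to 4844 per kidney), 1926 thick ascending limb-like cells (203 to 468), 2840 distal tubule-like cells (228 to 600) and 1743 collecting duct-like cells (104 to 472), and every defining marker of a class was detected in its sum in every kidney, except Cldn14 in thick ascending limb-like cells of the second naive kidney. Naive and transplanted cells of a class often lay in different clusters. Of the proximal tubule-like cells, 5 clusters held 8404 naive and 13 transplanted cells, 6 clusters 7 naive and 8229 transplanted cells, and only cluster 30 was mixed (220 naive and 163 transplanted cells). Of the distal tubule-like cells, cluster 23 held 771 naive and 13 transplanted cells, cluster 22 held 28 and 729, and cluster 14 was mixed (375 and 924). Comparisons with naive kidneys in these classes are therefore mostly between cells of different clusters, whereas the clusters of the thick ascending limb-like and collecting duct-like classes were mixed. The collecting duct-like class pooled clusters 13 (principal cell markers) and 29 (intercalated cell markers). Their cells numbered 378 and 94, and 371 and 39, in the naive kidneys. Rejecting kidneys had 57 and 47, and 75 and 31, and tolerized kidneys 151 and 41, and 390 and 69. The part of this mix in the levels of the class is not given here. Libraries shared at most 111 barcodes, in the naive pair. Pairs of transplanted libraries shared 18 to 35 barcodes, and naive libraries shared 0 to 4 with transplanted ones. What set the naive libraries apart in this was not tested, and it cannot be told apart from transplantation here. Mitochondrial genes gave a median of 24.9% and 25.5% of a cell's UMIs in naive kidneys, and of 5.38% to 13.7% in transplanted kidneys. The 5 pan-leukocyte markers summed to 2.53 to 22.8 UMIs per 1e6 in the 4 classes of naive kidneys, to 20.2 to 66.7 in tolerized kidneys, to 52.2 to 102 in the second rejecting kidney and to 255 to 485 in the first. In each class both rejecting kidneys thus had more leukocyte RNA than both tolerized kidneys, and the part of this RNA in the differences between these groups was not tested.

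The 10 genes were mostly higher in rejecting than in naive kidneys in all 4 classes, and their median change was smaller in tolerized kidneys. Calls were made with edgeR's quasi-likelihood test at a false discovery rate (FDR) of 0.05 over all genes tested in the class. Levels are CPM, counts per 1e6 UMIs of the class in that kidney after TMM scaling, a correction for differences in RNA composition.

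Rejecting against naive, 8 of 10 genes passed in proximal tubule-like cells, 7 higher and Clu lower, while 42.2% of all 12678 genes passed there (22.9% higher, 19.3% lower). The median log2 fold change of the 10 genes was 2.32, against 0.07 over all genes. Thick ascending limb-like cells had 4 of 8 tested members higher and none lower (17.3% of all genes passed, 9.24% higher and 8.07% lower), with a median of 1.58. Distal tubule-like cells had 5 of 8 higher (23% of all genes, 12.4% higher and 10.6% lower), with a median of 1.61. Collecting duct-like cells had 6 of 8 higher (19.9% of all genes, 11.1% higher and 8.8% lower), with a median of 1.77.

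Tolerized against naive, 6 of 10 genes passed in proximal tubule-like cells, 5 higher and Clu lower (32.6% of all genes, 17.2% higher and 15.4% lower), with a median log2 fold change of 1.5. Thick ascending limb-like cells had 2 of 8 members higher and 2 lower (10.8% of all genes, 5.59% higher and 5.26% lower), with a median of 0.74. Members higher numbered 4 of 8 in distal tubule-like cells (16.6% of all genes, 9.04% higher and 7.54% lower), and the same number in collecting duct-like cells (16.3% of all genes, 8.96% higher and 7.33% lower), with medians of 1.02 and 1.29. Both comparisons with naive kidneys share the same naive samples, so their counts are not separate evidence.

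Tolerized against rejecting, 3 of the 8 genes tested in thick ascending limb-like cells passed, Lcn2, Gdf15 and Tnfrsf12a, and all were lower in tolerized kidneys, where 0.342% of all 9650 genes passed (0.0104% higher, 0.332% lower). No member passed in the other classes, in which 0% of all genes passed in proximal tubule-like, 0.0293% in distal tubule-like and 0.00913% in collecting duct-like cells. At an unadjusted p under 0.05, edgeR's test held 4 members in each of these 3 classes, and DESeq2 called 3, 1 and 0 members at the same FDR. Over all genes, 1362 of 12678 had such a p by edgeR in proximal tubule-like and 833 of 10227 in distal tubule-like cells. The counts were 870 of 10949 in collecting duct-like and 706 of 9650 in thick ascending limb-like cells. The share of all genes that DESeq2 called is not given here. The median log2 fold change of the members was -0.73 in proximal tubule-like, -1.15 in thick ascending limb-like, -0.65 in distal tubule-like and -0.94 in collecting duct-like cells, and over all genes it was 0 in each.

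Both tolerized kidneys were below both rejecting kidneys for 5 of 10 members in proximal tubule-like cells (19.5% of all genes), 7 of 8 in thick ascending limb-like cells (18.2%), 4 of 8 in collecting duct-like cells (18.3%) and 5 of 8 in distal tubule-like cells (17.7%).

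**Figure D1:**
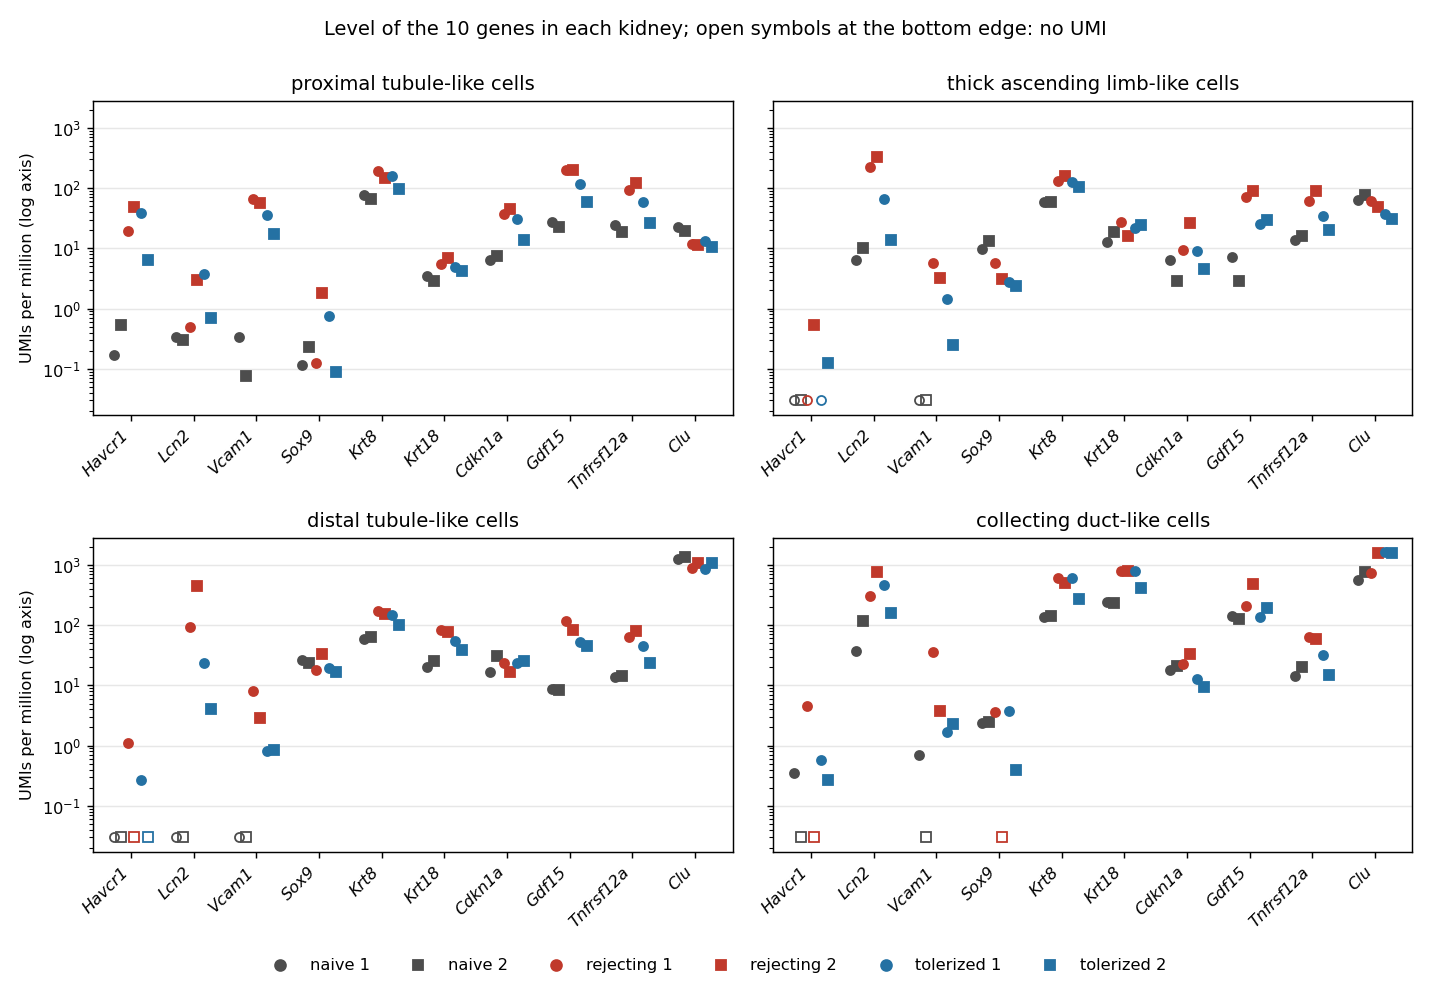
UMIs per 1e6 UMIs (log axis) of the 10 genes in each of the 6 kidneys, by class; circles are replicate 1 and squares replicate 2 of the naive (grey), rejecting (red) and tolerized (blue) groups, and open symbols mark kidneys with no UMI. Values are TMM-scaled where the gene was tested and unscaled where it was not. Gdf15 and Krt8 were higher in every transplanted kidney than in both naive kidneys in proximal tubule-like, thick ascending limb-like and distal tubule-like cells, while Havcr1 was near 0 in the 3 classes other than proximal tubule-like cells.

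**Figure D2:**
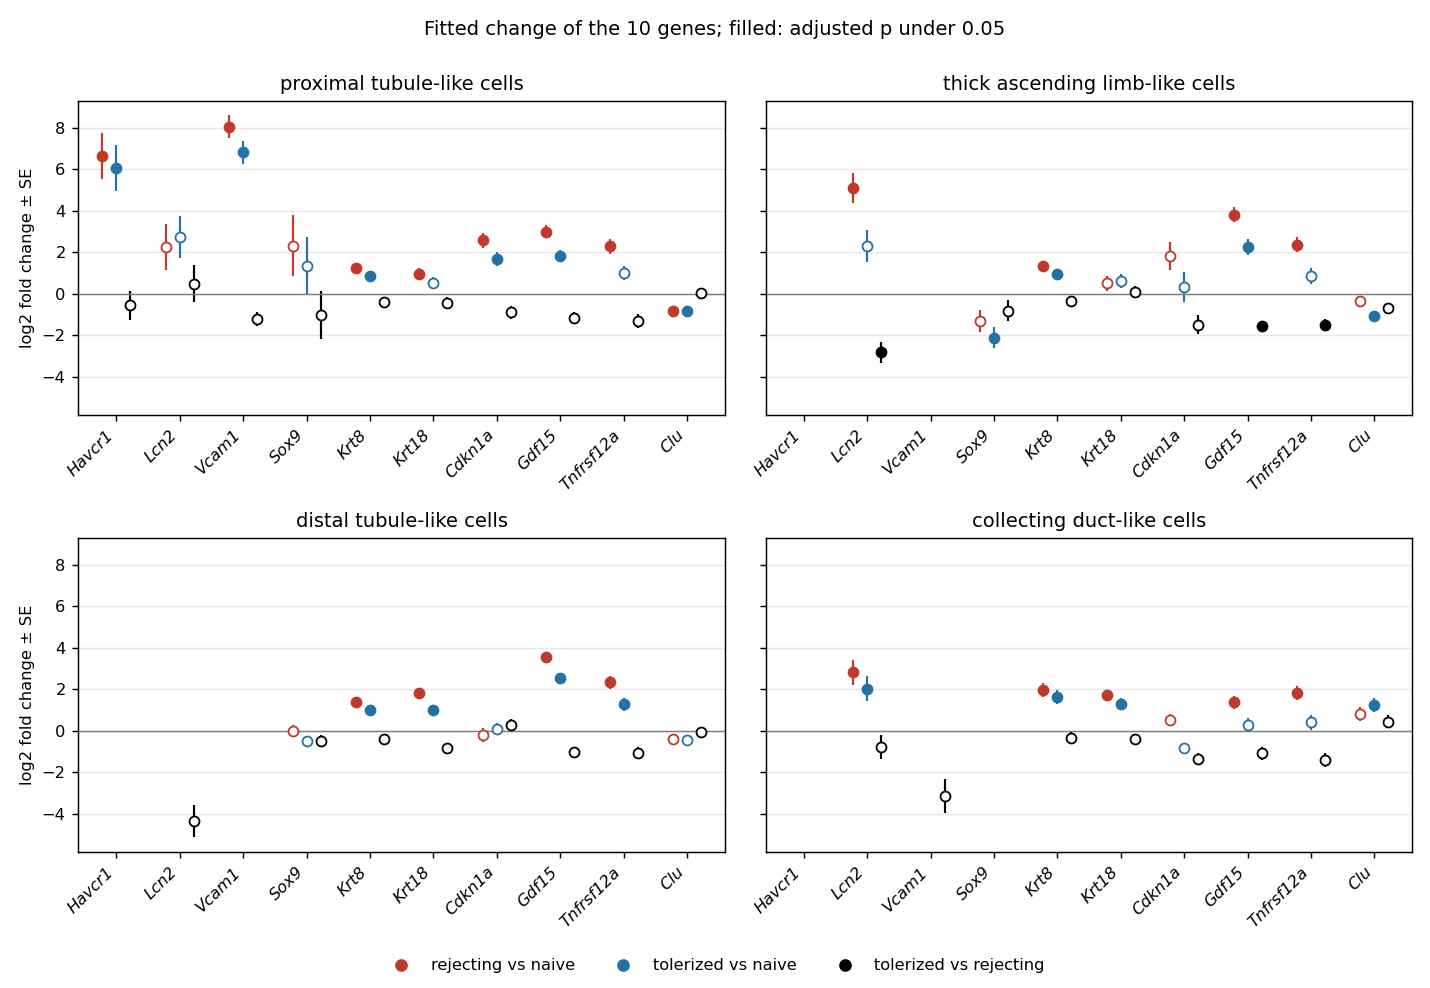
Log2 fold changes with standard errors from the fit over 6 kidneys, by class; red is rejecting against naive, blue tolerized against naive and black tolerized against rejecting, and filled symbols passed the FDR of 0.05. Genes not tested in a class, and contrasts with naive kidneys that held at most 3 UMIs of the gene, are left blank; filled black symbols are present for Lcn2, Gdf15 and Tnfrsf12a in thick ascending limb-like cells.

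Among the 4 tubular classes, Havcr1 was found almost only in proximal tubule-like cells, and there almost only in transplanted kidneys. Its level in these cells was 0.171 and 0.533 CPM in the naive kidneys, 19.3 and 47.6 CPM in the rejecting kidneys and 38.1 and 6.49 CPM in the tolerized kidneys, from 3, 7, 308, 388, 1437 and 222 UMIs. Every transplanted kidney was above both naive kidneys, and the rejecting and tolerized kidneys overlapped. Havcr1 rose by a log2 fold change of 6.63 ± 1.11 (SE; adjusted p = 0.00228) in rejecting and of 6.06 ± 1.10 (adjusted p = 0.00455) in tolerized kidneys against naive kidneys. The second of these missed the threshold without the first naive kidney (5.36, adjusted p = 0.0507).

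Tolerized and rejecting kidneys differed in Havcr1 by -0.56 ± 0.69 (adjusted p = 0.857), and the sign of this difference turned without the second rejecting kidney (0.22) or without the second tolerized kidney (0.21). In the other 3 classes each kidney held 0 to 5 UMIs of Havcr1, too few for a test. When each cell was thinned to 1000 UMIs, so that depth was equal, and shallower cells were left out, 0.0206% and 0.0264% of naive, 2.17% and 3.33% of rejecting, and 2.44% and 0.465% of tolerized proximal tubule-like cells held a UMI of Havcr1. The cells left out were 0 in naive kidneys and, in each transplanted kidney, 26 to 47 proximal tubule-like, 22 to 96 thick ascending limb-like, 25 to 156 distal tubule-like and 3 to 17 collecting duct-like cells. In distal tubule-like cells, which should lack Havcr1, the share was at most 0.271%, and in T cell-like cells, which can carry its protein when activated, at most 0.123%.

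Outside the tubule, Havcr1 was highest in pDC-like cells (plasmacytoid dendritic cells), which held 62 UMIs in 139 cells, or 78.4 per 1e6 UMIs over all kidneys, against 18.5 in proximal tubule-like cells. B cell-like cells held 3.44 per 1e6. Unnamed clusters held 10.7, and cluster 8 among them, which had proximal tubule markers, held 29.3.

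Lcn2 differed most in the segments after the proximal tubule. Its level in thick ascending limb-like cells was 6.43 and 10.2 CPM in naive, 223.3 and 324.7 CPM in rejecting, and 66.5 and 13.9 CPM in tolerized kidneys. No groups overlapped, and both tolerized kidneys lay between the naive and rejecting ones. The log2 fold change was -2.81 ± 0.50 (adjusted p = 0.043) for tolerized against rejecting kidneys, 5.11 ± 0.71 (adjusted p = 0.000613) for rejecting against naive, and 2.31 ± 0.78 (adjusted p = 0.0768) for tolerized against naive kidneys.

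The lower Lcn2 level of tolerized than of rejecting kidneys in thick ascending limb-like cells kept its direction in every alternative, but not its call. DESeq2 gave -2.78 (adjusted p = 0.221), called doublets kept gave -2.12 (adjusted p = 0.479), transplanted kidneys only gave -2.80 (adjusted p = 0.0926), and the adjusted p also passed 0.05 without the first naive (0.0889), the second naive (0.078), the second rejecting (-2.52, 0.054) or the second tolerized kidney (-2.04, 0.0785), and was 0.00036 without the first tolerized kidney (-4.28). Without cells holding any leukocyte marker UMI, which left 19 cells of the first rejecting kidney, the difference was -1.99 (adjusted p = 0.44). The tolerized against naive difference passed without the second tolerized kidney (3.08, adjusted p = 0.0011).

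Distal tubule-like cells of both naive kidneys held no UMI of Lcn2, which allows up to 0.539 CPM (3 UMIs over the group). The rejecting kidneys held 177 and 833 UMIs (92.3 and 452.0 CPM) and the tolerized kidneys 96 and 23 UMIs (23.9 and 4.04 CPM). Summed over each group, rejecting kidneys were therefore at least 525-fold higher than naive kidneys, which passed edgeR's test (adjusted p = 0.00084). Tolerized kidneys, summed in the same way, were at least 23.0-fold higher. That rise did not pass with edgeR (adjusted p = 0.0621) and did with DESeq2 (adjusted p = 0.00823). No groups overlapped. The second rejecting and the first tolerized kidney gave most of these UMIs, so the bounds are not those of each kidney. Most of the naive cells were those of cluster 23 and most others those of clusters 14 and 22. In cluster 14, which all kidneys shared, the rejecting kidneys held 13 and 458 UMIs of Lcn2 (20.5 and 1276 per 1e6), the tolerized kidneys 59 and 1 (75.1 and 1.04) and the naive kidneys 0, so that the transplanted groups overlapped there. The tolerized against rejecting difference in the whole class was -4.35 ± 0.79 (adjusted p = 0.0782). It passed without cells holding a leukocyte marker UMI (-3.58, adjusted p = 2.91e-05), with at most 20% mitochondrial UMIs (-4.49, adjusted p = 0.0446), without the first rejecting kidney (-5.10, adjusted p = 0.00776) and without the first tolerized kidney (-6.05, adjusted p = 0.0466).

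Lcn2 in collecting duct-like cells reached 37.0 and 114.9 CPM in naive, 299.8 and 763.0 CPM in rejecting, and 462.8 and 160.0 CPM in tolerized kidneys. It rose in rejecting (2.82 ± 0.61, adjusted p = 0.00942) and tolerized kidneys (2.04 ± 0.60, adjusted p = 0.0395) against naive kidneys, and the transplanted groups overlapped (-0.78 ± 0.56, adjusted p = 0.776). The rejecting call was lost without the first naive kidney (2.19, adjusted p = 0.0881). The tolerized call was lost with DESeq2 (2.02, adjusted p = 0.194) and without the first naive (1.43, 0.249), the second naive (3.06, 0.057) or the first tolerized kidney (1.09, 0.277).

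Proximal tubule-like cells had little Lcn2, at 0.342, 0.304, 0.502, 2.94, 3.69 and 0.702 CPM in the order naive, rejecting, tolerized, and no comparison passed. T cell-like cells of the same grafts held 1.18, 5.16, 1.51 and 2.37 UMIs of Lcn2 per 1e6, against unscaled levels of 0.583, 3.41, 3.97 and 0.67 in proximal tubule-like cells, so that in 3 of 4 grafts the proximal level was below that of a class that should lack Lcn2. The tolerized against rejecting difference of Lcn2 was itself different between segments. It was 0.49 in proximal tubule-like cells, where it did not pass, and -4.35 in distal tubule-like cells, and in the fit over all classes the signed difference was higher in the former by 4.70 ± 0.60 (adjusted p = 0.00386, 0.0239% of all genes passing). Against thick ascending limb-like cells the same contrast of proximal minus other cells was 3.49 ± 0.58 (adjusted p = 0.0635, 0% of all genes passing), and against collecting duct-like cells 1.13 ± 0.59 (adjusted p = 0.627, 0.0399% of all genes passing). Among collecting duct-like cells, the cluster with principal cell markers held 311 UMIs of Lcn2 per 1e6 over all kidneys and the cluster with intercalated cell markers 17.5. Of all cell classes, neutrophil-like cells had the highest Lcn2 level, 1685 UMIs per 1e6 over all kidneys. They held 8.58% and 8.69% of the Lcn2 UMIs of the rejecting and 4.15% and 4.64% of those of the tolerized kidneys. Naive kidneys had no neutrophil-like cells. The part of neutrophil RNA in the Lcn2 differences of the tubular classes was not tested.

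Vcam1 was nearly silent in naive proximal tubule-like cells and present in all 4 grafts. Its level was 0.342 and 0.0761 CPM in naive, 67.0 and 57.4 CPM in rejecting, and 36.0 and 17.2 CPM in tolerized kidneys, and no groups overlapped. It rose by 8.07 ± 0.55 (adjusted p = 2.7e-05) in rejecting and by 6.84 ± 0.56 (adjusted p = 7.62e-05) in tolerized kidneys against naive kidneys. The tolerized kidneys were lower than the rejecting ones by -1.23 ± 0.33 with an adjusted p of 0.235. DESeq2 called that difference (-1.22, adjusted p = 0.047), as did edgeR without the first tolerized kidney (-1.85, adjusted p = 0.0301).

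Tubular cells held only 1.05% to 25.5% of a kidney's Vcam1 UMIs, and macrophage-like cells (351 per 1e6 UMIs over all kidneys) and endothelium-like cells (215) had higher levels than proximal tubule-like cells (27.3). After thinning to 1000 UMIs, 5.51% and 5.37% of rejecting and 2.81% and 0.93% of tolerized proximal tubule-like cells held Vcam1, against 0.0413% and 0% in naive kidneys and at most 1.40% in T cell-like cells. Macrophage-like cells held 76.8% and 86.0% of the Vcam1 UMIs of the rejecting and 69.7% and 51.7% of those of the tolerized kidneys. The part of their RNA in the tolerized against rejecting difference of proximal tubule-like cells was not tested. Without cells holding a leukocyte marker UMI, which left 72 cells of the first rejecting kidney, the rises against naive kidneys were 7.45 and 6.76.

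The other classes held 0 to 15 Vcam1 UMIs per kidney in thick ascending limb-like and distal tubule-like cells, where it was not tested. Summed over each group, it was at least 3.03-fold higher in rejecting than naive kidneys in the former, and at least 10.4-fold (rejecting) and 1.55-fold (tolerized) higher in the latter. In collecting duct-like cells it was 35.8 and 3.77 CPM in rejecting kidneys, 1.70 and 2.32 CPM in tolerized kidneys and 0.706 and 0 CPM in naive kidneys, which held 2 UMIs. The ratio of rejecting to naive collecting duct-like cells was 47.1 (95% counting interval 12.3 to 400), and the call (adjusted p = 0.00982) was lost without either naive kidney (adjusted p = 0.0546 and 0.0885) or without the first rejecting kidney (adjusted p = 0.117), in which pan-leukocyte markers summed to 385 per 1e6 UMIs.

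Gdf15 rose in all 4 classes of rejecting kidneys. In proximal tubule-like cells it was 27.3 and 22.5 CPM in naive, 199.4 and 199.6 CPM in rejecting, and 117.7 and 59.7 CPM in tolerized kidneys. No groups overlapped, and the rises against naive kidneys were 3 ± 0.31 (adjusted p = 0.000235) for rejecting and 1.83 ± 0.30 (adjusted p = 0.00264) for tolerized kidneys. The tolerized against rejecting difference of -1.17 ± 0.29 had an adjusted p of 0.229 with edgeR and 0.0182 with DESeq2, and it passed edgeR's test without the first tolerized kidney (-1.73, adjusted p = 0.0208).

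Gdf15 in thick ascending limb-like cells was 7.24 and 2.92 CPM in naive, 71.1 and 89.0 CPM in rejecting, and 25.1 and 29.0 CPM in tolerized kidneys. The level fell by 1.56 ± 0.22 on the log2 scale (adjusted p = 0.0146) from rejecting to tolerized kidneys and rose by 3.82 ± 0.35 (rejecting, adjusted p = 2.6e-05) and 2.26 ± 0.38 (tolerized, adjusted p = 0.00244) against naive kidneys. The tolerized against rejecting call was also made by DESeq2 (adjusted p = 0.0011), with called doublets kept (-1.84, adjusted p = 0.0107) and with transplanted kidneys only (adjusted p = 0.0266), and it was lost without the first (-1.45, adjusted p = 0.0944) or the second tolerized kidney (-1.67, adjusted p = 0.139). Without cells holding a leukocyte marker UMI the difference was -0.72 (adjusted p = 1). With at most 20% mitochondrial UMIs per cell, which left 20 cells of the second naive kidney, the tolerized against naive difference turned to -0.18. Macrophage-like cells held 16.6% and 33.2% of the Gdf15 UMIs of the rejecting kidneys and 14.8% and 6.34% of those of the tolerized kidneys. The part of their RNA in the tolerized against rejecting difference was not tested.

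Distal tubule-like cells showed the same order, with 8.60 and 8.27 CPM in naive, 116.9 and 84.6 CPM in rejecting, and 52.3 and 45.7 CPM in tolerized kidneys. Gdf15 rose there by 3.57 ± 0.25 (adjusted p = 4.87e-06) and 2.53 ± 0.25 (adjusted p = 6.31e-05) against naive kidneys. The tolerized kidneys lay below the rejecting ones by -1.04 ± 0.19 with an adjusted p of 0.0777. This difference passed with DESeq2 (-1.05, adjusted p = 0.0445) and without the second rejecting kidney (-1.25, adjusted p = 0.00688), and without cells holding a leukocyte marker UMI its sign turned (0.16, adjusted p = 0.976). In cluster 14, the distal cluster that all kidneys shared, the naive kidneys had 8.3 and 11.8 UMIs of Gdf15 per 1e6, the rejecting kidneys 28.4 and 8.36 and the tolerized kidneys 17.8 and 13.6, from 3 to 18 UMIs each, and rejecting kidneys overlapped both other groups.

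Of the 4 classes, collecting duct-like cells had the highest naive level of Gdf15, 143.2 and 124.5 CPM, beside 209.8 and 480.2 CPM in rejecting and 135.9 and 190.0 CPM in tolerized kidneys. It rose in rejecting kidneys (1.37 ± 0.33, adjusted p = 0.016), and tolerized kidneys overlapped the naive ones (0.29 ± 0.33, adjusted p = 0.591). The rejecting call was lost without either naive kidney (1.46 and 1.25, adjusted p = 0.0891 and 0.143) and without the second rejecting kidney (0.64, adjusted p = 0.107). The tolerized against rejecting difference, -1.09 ± 0.33 (adjusted p = 0.363), passed without the first rejecting kidney (-1.55, adjusted p = 0.00915).

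The rise of Gdf15 against naive kidneys was larger in proximal tubule-like than in collecting duct-like cells by 1.63 ± 0.40 (adjusted p = 0.00814) for rejecting and 1.48 ± 0.40 (adjusted p = 0.0192) for tolerized kidneys, where 17.3% and 13.3% of all genes differed. The first of these was lost without either naive kidney or the first rejecting kidney (1.82, 1.72 and 1.10, adjusted p = 0.0582, 0.0614 and 0.0818), and the second without either naive kidney (1.59 and 1.49, adjusted p = 0.122 and 0.137).

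Tnfrsf12a, the TWEAK receptor, was higher in both rejecting kidneys than in both naive kidneys in every class. In proximal tubule-like cells it was 24.3 and 18.5 CPM in naive, 92.5 and 119.3 CPM in rejecting, and 59.1 and 26.6 CPM in tolerized kidneys. The rise in rejecting kidneys was 2.30 ± 0.36 (adjusted p = 0.00163), and the tolerized against naive difference of 1.00 ± 0.35 (adjusted p = 0.054) passed with DESeq2 (adjusted p = 0.0247) and without the second tolerized kidney (1.46, adjusted p = 0.00374). The tolerized kidneys were lower than the rejecting ones by -1.30 ± 0.34 (adjusted p = 0.235), which DESeq2 called (adjusted p = 0.0289), as did edgeR without the first tolerized kidney (-1.99, adjusted p = 0.0229).

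Tnfrsf12a in thick ascending limb-like cells was 13.7 and 16.1 CPM in naive, 61.7 and 89.0 CPM in rejecting, and 34.4 and 19.9 CPM in tolerized kidneys, again without overlap. It fell by 1.5 ± 0.27 on the log2 scale (adjusted p = 0.043) from rejecting to tolerized kidneys and rose by 2.36 ± 0.36 (adjusted p = 0.00111) in rejecting against naive kidneys. DESeq2 also called the tolerized against rejecting difference (-1.49, adjusted p = 0.0188). edgeR lost it with called doublets kept (-1.36, 0.0917), with transplanted kidneys only (-1.49, 0.0926), without either naive kidney (adjusted p = 0.0889 and 0.078), without the second rejecting (-1.21, 0.116) or second tolerized kidney (-1.13, 0.533), with at most 20% mitochondrial UMIs (-0.95, 0.728) and without cells holding a leukocyte marker UMI (-1.23, 0.549).

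In distal tubule-like cells Tnfrsf12a was 13.9 and 14.1 CPM in naive, 64.7 and 78.7 CPM in rejecting, and 45.8 and 23.5 CPM in tolerized kidneys. Rejecting kidneys rose by 2.35 ± 0.32 (adjusted p = 0.000484) and tolerized kidneys by 1.29 ± 0.31 (adjusted p = 0.0179), the latter not without either naive kidney (1.25 and 1.28, adjusted p = 0.12 and 0.102) or the first tolerized kidney (0.75, adjusted p = 0.12). Tolerized kidneys were lower than rejecting ones by -1.07 ± 0.27 (adjusted p = 0.163), which passed without the first tolerized kidney (-1.60, adjusted p = 0.0466).

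Tnfrsf12a in collecting duct-like cells was 14.5 and 20.1 CPM in naive, 64.7 and 57.8 CPM in rejecting, and 32.5 and 14.9 CPM in tolerized kidneys. Only the rise in rejecting against naive kidneys passed there (1.83 ± 0.35, adjusted p = 0.0054), and not without the first naive kidney (1.58, adjusted p = 0.0648). Tolerized kidneys overlapped the naive ones and lay below the rejecting ones (-1.41 ± 0.33, adjusted p = 0.164).

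Cdkn1a passed in proximal tubule-like cells of the grafts and in no other class. Its level there was 6.43 and 7.38 CPM in naive, 37.0 and 45.5 CPM in rejecting, and 30.3 and 13.9 CPM in tolerized kidneys, without overlap. The rises were 2.58 ± 0.35 (adjusted p = 0.000896) and 1.68 ± 0.34 (adjusted p = 0.00747), the second of them lost without either naive kidney (1.57 and 1.78, adjusted p = 0.0661 and 0.0503). The tolerized against rejecting difference of -0.90 ± 0.32 (adjusted p = 0.357) passed without the first tolerized kidney (-1.56, adjusted p = 0.0301).

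Distal tubule-like cells had 16.5, 31.1, 23.5, 16.8, 23.2 and 25.8 CPM of Cdkn1a in the order naive, rejecting, tolerized, and all groups overlapped. The rise of Cdkn1a in rejecting against naive kidneys was larger in proximal tubule-like than in distal tubule-like cells by 2.69 ± 0.45 (adjusted p = 0.000683) and than in collecting duct-like cells by 2.04 ± 0.46 (adjusted p = 0.004), where 13.1% and 17.3% of all genes differed. Both held with each kidney left out in turn. In tolerized kidneys the same differences were 1.42 ± 0.41 (adjusted p = 0.0329) and 2.39 ± 0.44 (adjusted p = 0.00144), and the first was lost without either naive kidney (1.85 and 1.12, adjusted p = 0.0956 and 0.291) or the first tolerized kidney (0.79, adjusted p = 0.187).

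In collecting duct-like cells Cdkn1a was 18.3 and 21.0 CPM in naive, 22.7 and 32.7 CPM in rejecting, and 13 and 9.41 CPM in tolerized kidneys, and in thick ascending limb-like cells 6.43, 2.92, 9.41, 26.8, 8.89 and 4.55 CPM in the order naive, rejecting, tolerized. None of the comparisons in these classes passed, although in thick ascending limb-like cells the rejecting against naive difference of 1.82 ± 0.66 (adjusted p = 0.0788) did without the first rejecting kidney (2.38, adjusted p = 0.0161), and in collecting duct-like cells the tolerized against naive difference of -0.84 ± 0.28 (adjusted p = 0.0615) did without the first or second rejecting kidney (-0.84 each, adjusted p = 0.031 and 0.0332). The 4 tubular classes together held 8.3% to 33.7% of a kidney's Cdkn1a UMIs. Monocyte-like cells reached 435 per 1e6 UMIs over all kidneys, against 21.8 in proximal tubule-like cells. After thinning, 0.351% to 2.69% of proximal tubule-like cells held a UMI, and 1.48% to 4.37% of T cell-like cells of the grafts did.

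Krt8 rose in all 4 classes of both grafted groups. In proximal tubule-like cells it was 76.4 and 64.9 CPM in naive, 189.5 and 144.7 CPM in rejecting, and 155.8 and 96.8 CPM in tolerized kidneys, and it rose by 1.24 ± 0.25 (adjusted p = 0.00524) and 0.84 ± 0.25 (adjusted p = 0.032). The rejecting rise was lost without the second naive kidney (1.12, adjusted p = 0.0519), and the tolerized rise without either naive kidney (0.95 and 0.72, adjusted p = 0.103 and 0.186) or the first tolerized kidney (0.46, adjusted p = 0.175), and without cells holding a leukocyte marker UMI (0.68, adjusted p = 0.0554).

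Krt8 in thick ascending limb-like cells was 57.9 and 58.5 CPM in naive, 132.8 and 160.0 CPM in rejecting, and 124.2 and 104.1 CPM in tolerized kidneys (1.33 ± 0.22, adjusted p = 0.00195, and 0.97 ± 0.22, adjusted p = 0.0148). In distal tubule-like cells it was 58.5 and 63.7, 168.5 and 151.4, and 144.7 and 101.2 CPM (1.39 ± 0.21, adjusted p = 0.000984, and 1.01 ± 0.21, adjusted p = 0.00751). In both classes every graft was above every naive kidney and every rejecting kidney above every tolerized one, by margins that did not pass (-0.36 ± 0.20, adjusted p = 0.78, and -0.38 ± 0.20, adjusted p = 0.687). Each tolerized rise was lost without either naive kidney or the first tolerized kidney, with values of 0.86 to 0.98 in thick ascending limb-like and 0.73 to 1.05 in distal tubule-like cells. The rejecting rise in thick ascending limb-like cells was lost with at most 20% mitochondrial UMIs (1.31, adjusted p = 0.107) and without cells holding a leukocyte marker UMI (0.88, adjusted p = 0.0925).

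Of the 4 classes, the largest change of Krt8 was in collecting duct-like cells, at 135.5 and 143.4 CPM in naive, 597.9 and 499.6 CPM in rejecting, and 601.7 and 267.6 CPM in tolerized kidneys (1.98 ± 0.33, adjusted p = 0.00227, and 1.64 ± 0.33, adjusted p = 0.00648). The tolerized rise was lost without either naive kidney (1.59 and 1.67, adjusted p = 0.0813 and 0.0863), and the rejecting rise without cells holding a leukocyte marker UMI, which left 3 cells of the first rejecting kidney (1.23, adjusted p = 0.0843). The rises of Krt8 were smaller in proximal tubule-like than in collecting duct-like cells by -0.78 ± 0.24 (rejecting, adjusted p = 0.031) and -0.77 ± 0.24 (tolerized, adjusted p = 0.0367). The first of these was lost without any 1 of the naive or rejecting kidneys (-0.87 to -0.47, adjusted p from 0.0629 to 0.413) and the second without either naive kidney or the first tolerized kidney (-0.88 to -0.51, adjusted p from 0.116 to 0.374).

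Krt18, the partner of Krt8, was at 3.42 and 2.82 CPM in naive proximal tubule-like cells and at 244.8 and 234.8 CPM in naive collecting duct-like cells, and the classes between were at 12.9 to 25.3 CPM. In collecting duct-like cells of the grafts it was 797.2 and 776.8 CPM in rejecting and 778.3 and 418.7 CPM in tolerized kidneys, and it rose by 1.71 ± 0.28 (adjusted p = 0.00195) and 1.32 ± 0.28 (adjusted p = 0.00864). The tolerized rise there was lost without either naive kidney (1.34 and 1.28, adjusted p = 0.0861 and 0.12) or the first tolerized kidney (0.81, adjusted p = 0.0652).

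In distal tubule-like cells Krt18 was 20.2 and 25.3 CPM in naive, 84.5 and 76.0 CPM in rejecting, and 53.8 and 38.3 CPM in tolerized kidneys, without overlap. It rose by 1.83 ± 0.23 (adjusted p = 0.000301) and 1.02 ± 0.22 (adjusted p = 0.0105), the second of them lost without the first naive (0.83, adjusted p = 0.122) or the first tolerized kidney (0.77, adjusted p = 0.0887). The tolerized kidneys lay below the rejecting ones by -0.81 ± 0.21 (adjusted p = 0.161).

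In proximal tubule-like cells of rejecting kidneys Krt18 reached 5.46 and 6.87 CPM and in tolerized kidneys 4.96 and 4.15 CPM. T cell-like cells should lack this keratin, and those of rejecting kidneys held 5.36 and 5.03 UMIs per 1e6 and those of tolerized kidneys 3.14 and 7.30, beside unscaled levels of 6.34 and 7.95, and 5.34 and 3.96, in proximal tubule-like cells. The proximal level was thus near that of a background class, and the part of free RNA in it was not tested. Its rise in rejecting kidneys was 0.96 ± 0.28 (adjusted p = 0.0228), and it was lost without either naive kidney (1.10 and 0.83, adjusted p = 0.0689 and 0.13), without the second rejecting kidney (0.80, adjusted p = 0.088) and with a clustering at a resolution of 0.8 (0.24, adjusted p = 0.585). Without cells holding a leukocyte marker UMI, which left 72 cells of the first rejecting kidney, the sign turned to -0.34. In thick ascending limb-like cells no comparison of Krt18 passed (12.9, 19.0, 27.2, 16.0, 21.6 and 24.6 CPM in the order naive, rejecting, tolerized).

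Sox9 passed in a single comparison, a decrease. In thick ascending limb-like cells it was 9.65 and 13.2 CPM in naive, 5.75 and 3.09 CPM in rejecting, and 2.73 and 2.34 CPM in tolerized kidneys, and it fell by 2.12 ± 0.51 on the log2 scale (adjusted p = 0.0205) in tolerized against naive kidneys. The call was lost without any 1 of the naive or tolerized kidneys (-2.35 to -1.93, adjusted p from 0.126 to 0.19). The levels of distal tubule-like cells, 26.8, 23.8, 18.3, 32.6, 19.7 and 16.7 CPM in the order naive, rejecting, tolerized, and those of proximal tubule-like cells, at most 1.84 CPM, gave no call. In collecting duct-like cells it was not tested.

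Clu fell in proximal tubule-like cells and rose in collecting duct-like cells of tolerized kidneys. In proximal tubule-like cells it was 22.3 and 19.2 CPM in naive, 11.7 and 11.3 CPM in rejecting, and 13 and 10.7 CPM in tolerized kidneys, and it fell by 0.85 ± 0.19 (adjusted p = 0.00774) and 0.81 ± 0.18 (adjusted p = 0.0107) on the log2 scale. T cell-like cells of the grafts held 5.16 to 19.3 UMIs of Clu per 1e6, which spans the unscaled 10.2 to 14.0 of proximal tubule-like cells of the grafts. Both calls were lost without the first naive kidney (-0.75 and -0.70, adjusted p = 0.0583 and 0.0842) and with at most 20% mitochondrial UMIs (-0.30 and -0.26, adjusted p = 0.309 and 0.377), the rejecting one also without cells holding a leukocyte marker UMI (-0.86, adjusted p = 0.0734), and the tolerized one also without the second tolerized kidney (-0.68, adjusted p = 0.0501). Naive kidneys had the higher mitochondrial shares, and their part in this difference was not tested.

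Clu in collecting duct-like cells was 561.7 and 769.8 CPM in naive, 740.4 and 1593 CPM in rejecting, and 1629 and 1563 CPM in tolerized kidneys. It rose in tolerized kidneys (1.26 ± 0.33, adjusted p = 0.0247), while rejecting kidneys overlapped the naive ones (0.81 ± 0.33, adjusted p = 0.104). The tolerized rise was lost without any 1 of the naive or tolerized kidneys (1.04 to 1.49, adjusted p from 0.0615 to 0.213), and the rejecting difference passed without the first rejecting kidney (1.26, adjusted p = 0.00324). The difference between the classes was -1.64 ± 0.32 (adjusted p = 0.0017) for rejecting and -2.11 ± 0.31 (adjusted p = 0.000185) for tolerized against naive kidneys, as proximal tubule-like minus collecting duct-like cells. The first was lost without the first naive kidney (-1.15, adjusted p = 0.1), and the second held with each kidney left out.

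In naive kidneys Clu was highest of the 4 classes in distal tubule-like cells, at 1240 and 1331 CPM, and it did not pass there in rejecting (887.9 and 1079 CPM) or tolerized kidneys (843.8 and 1064 CPM), although both groups lay below the naive one. In thick ascending limb-like cells it was 63.5 and 77.5 CPM in naive, 60.7 and 48.4 CPM in rejecting, and 36.7 and 31.1 CPM in tolerized kidneys. The level fell by 1.05 ± 0.23 on the log2 scale (adjusted p = 0.0114) in tolerized against naive kidneys. That call was lost without the second naive or the second tolerized kidney (-0.91 each, adjusted p = 0.0968 and 0.103) and when called doublets were kept (-0.63, adjusted p = 0.134).

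**Figure D3:**
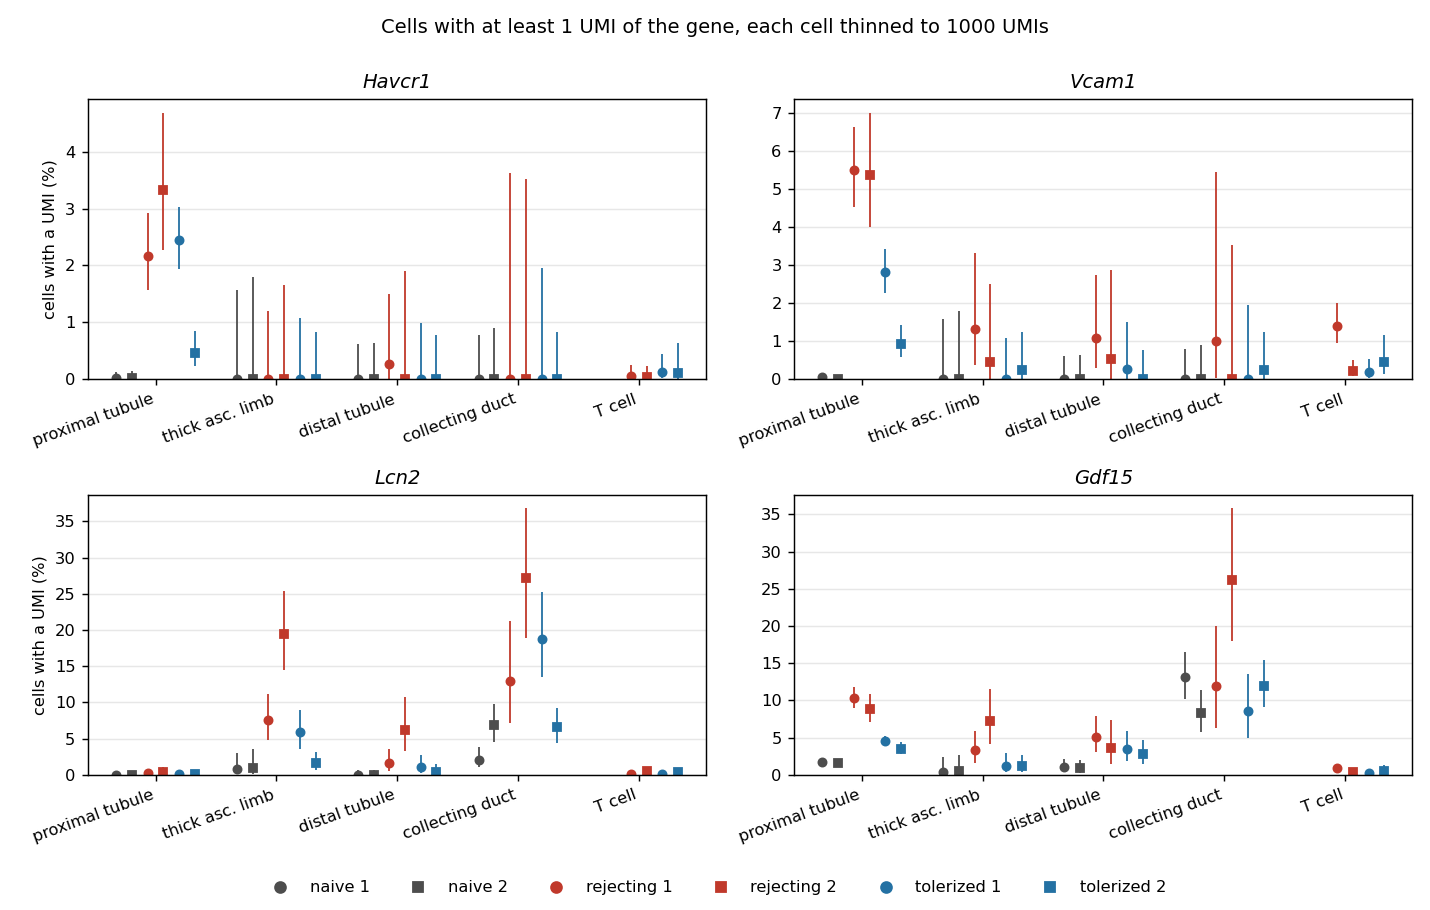
Share of cells with at least 1 UMI of Havcr1, Vcam1, Lcn2 or Gdf15 in each kidney, by class, after each cell was thinned to 1000 UMIs and shallower cells were left out; bars are exact binomial 95% intervals, which cover counting error only, and groups of under 100 cells are not drawn. Havcr1 and Vcam1 were most frequent in proximal tubule-like cells of the grafts and Lcn2 in collecting duct-like and thick ascending limb-like cells, and T cell-like cells, drawn last, held few UMIs of all 4 genes.

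For Gdf15 and Lcn2 the same order of groups was seen in the share of cells, which does not depend on a few cells with many UMIs. After thinning, Gdf15 was found in 1.75% and 1.66% of naive, 10.3% and 8.81% of rejecting, and 4.52% and 3.49% of tolerized proximal tubule-like cells, with at most 0.906% of T cell-like cells. Without thinning the shares of Gdf15 were 5.86% and 5.52%, 24% and 21.1%, and 18.7% and 19.8%. Median depths were 3289 and 3367, 5532 and 5154, and 7608 and 11953 UMIs, so that tolerized cells were the deepest. Macrophage-like cells, for which no such share is given here, held 6.34% to 33.2% of the Gdf15 UMIs of a graft. Lcn2 was found in 0.858% and 0.985% of naive, 7.54% and 19.5% of rejecting, and 5.87% and 1.58% of tolerized thick ascending limb-like cells, with at most 0.509% of T cell-like cells. The unthinned shares of Lcn2 there were 2.15% and 1.48%, 15.5% and 45.3%, and 26.2% and 11.8%, in which the transplanted groups overlapped. Krt18 was found in 16.3% and 19.8% of naive, 42.0% and 40.8% of rejecting, and 34.9% and 26.9% of tolerized collecting duct-like cells. Its shares did not overlap between rejecting and tolerized kidneys there, whereas its levels did.

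Few cells held Havcr1 together with another member at this depth. The rejecting kidneys had 41 and 31 Havcr1-positive proximal tubule-like cells, the tolerized kidneys 80 and 10 and each naive kidney 1. Gdf15 was found in 17.1% and 22.6% of those of the rejecting kidneys, against 10.2% and 8.33% of the other cells, and in 10.0% of those of each tolerized kidney, against 4.38% and 3.46%. It was the member with the higher share in Havcr1-positive cells of all 4 grafts. Vcam1 was in 7.32% and 12.9% against 5.47% and 5.11% in rejecting kidneys, and in 10.0% and 0% against 2.63% and 0.934% in tolerized kidneys. Cdkn1a was in 0% and 16.1% against 2.44% and 2.22%, and in 3.75% and 0% against 1.88% and 1.12%. Krt8 was less frequent in Havcr1-positive cells of both rejecting kidneys (12.2% and 6.45%, against 13.2% and 11.1%) and more frequent in those of the tolerized kidneys (20% and 40%, against 10.7% and 7.57%). Tnfrsf12a was less frequent in the first rejecting kidney (4.88% against 8.17%) and more frequent in the second (19.4% against 11.1%) and in the tolerized kidneys (12.5% and 10.0%, against 5.38% and 2.29%). These shares rest on few cells and are given without a test.

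**Figure D4:**
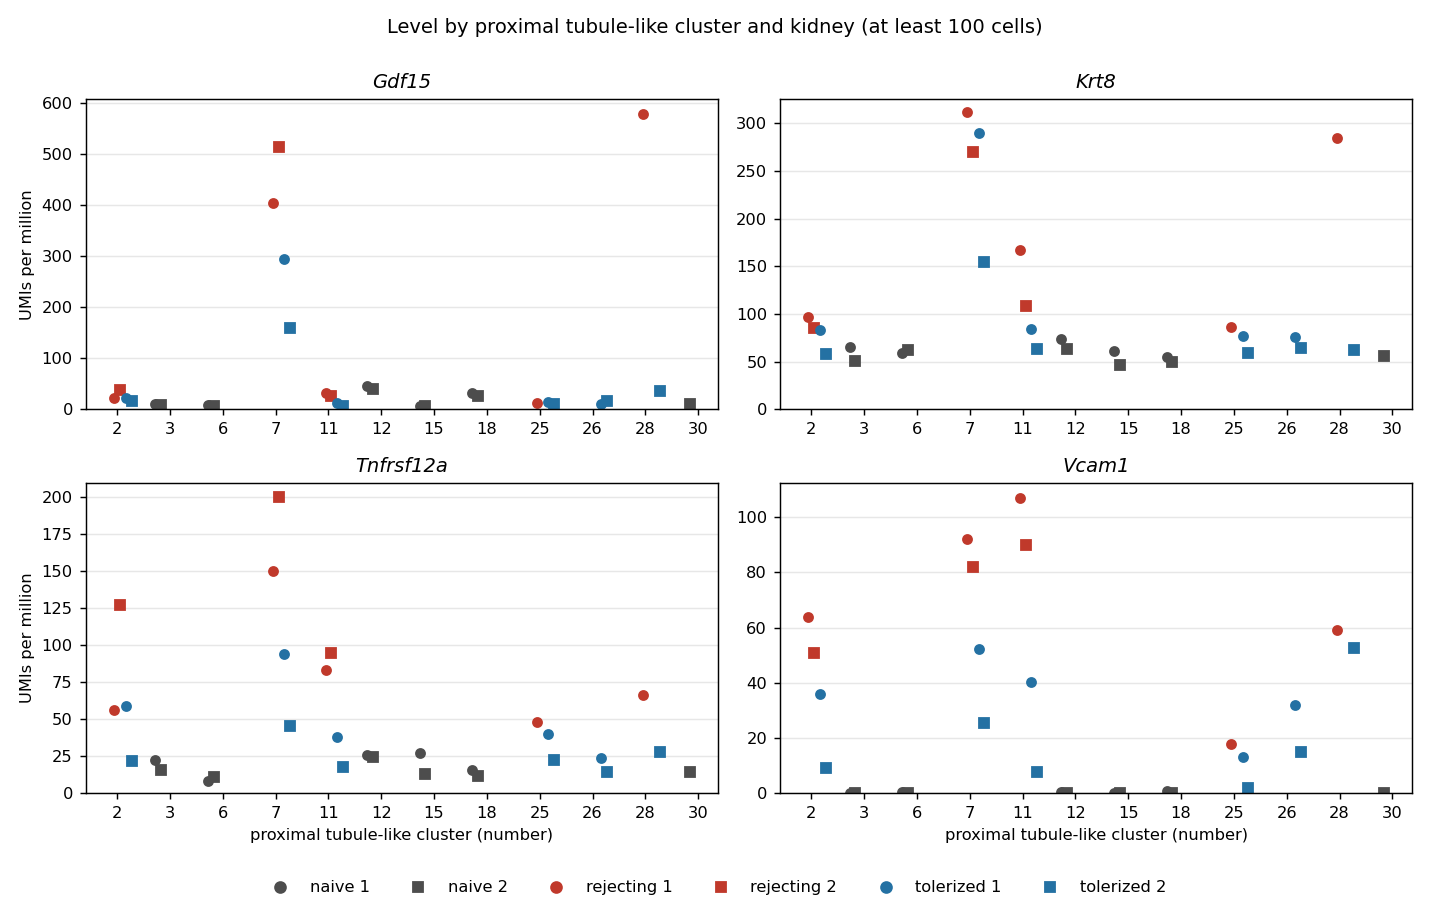
UMIs per 1e6 UMIs of Gdf15, Krt8, Tnfrsf12a and Vcam1 in each cluster of proximal tubule-like cells, for kidneys with at least 100 cells in the cluster; colors and symbols are those of the groups and replicates. Gdf15 was 160 to 513 in cluster 7 and lower in all other clusters drawn, except cluster 28 of the first rejecting kidney (578).

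Within the proximal tubule-like class the members were not spread evenly. The genes described here took no part in the clustering, and cluster 7 carried most of the Gdf15 UMIs that this class held in the grafts. It held no naive cell, which was also true of clusters 11, 25, 26 and 28. Cluster 7 held 30.8% and 23.4% of the proximal tubule-like cells of the rejecting kidneys and 20.5% and 19.2% of those of the tolerized kidneys, but 90.7%, 91.6%, 90.2% and 82.2% of their Gdf15 UMIs. Because its cells were deep, it also held 51.9%, 41.3%, 39.0% and 29.3% of all UMIs of the class. Outside this cluster the Gdf15 level was 44.8 and 32.9 per 1e6 UMIs in rejecting kidneys, 20.3 and 14.4 in tolerized kidneys and 22.9 and 19.4 in naive kidneys, so that tolerized and naive kidneys overlapped there.

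Havcr1 was highest in another cluster, the mixed cluster 30, with 429 of the 2365 Havcr1 UMIs of the class in 383 cells (156 per 1e6 UMIs), against 34.1 per 1e6 in cluster 7. Within cluster 30 it was 198 and 233 per 1e6 in 39 and 20 cells of the rejecting kidneys and 247 in 91 cells of the first tolerized kidney, and 2.69 and 3.54 in 95 and 125 naive cells. The second tolerized kidney had 13 cells in this cluster, too few to be given a level. The difference between the other 3 grafts and the naive kidneys was thus also seen where their cells shared a cluster.

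Within cluster 7 the rejecting kidneys were above the tolerized kidneys for several members. Gdf15 was 404 and 513 per 1e6 UMIs in rejecting and 294 and 160 in tolerized kidneys, and Vcam1 92.0 and 81.8 against 52.4 and 25.3. Tnfrsf12a was 150 and 200 against 93.8 and 45.2. Cdkn1a, at 61.4 and 108 against 59.2 and 11.5, was also without overlap, whereas Havcr1 (23.0 and 79.4 against 49.9 and 8.38) and Krt8 (312 and 270 against 290 and 155) overlapped. Clusters are not independent of the genes that vary between cells, so these values are given without a test.

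Genes known to act with the members were described as lists, which were chosen with earlier results of these data known. Of 34 further injury and repair genes, 16 rose and 5 fell among the 31 tested in proximal tubule-like cells of rejecting against naive kidneys (median log2 fold change 0.87, against 0.07 over all genes), and 9 rose and 7 fell in tolerized against naive kidneys (0.24, against 0.06). Of all genes, 22.9% rose and 19.3% fell in the former comparison, and 17.2% and 15.4% in the latter. C3, the central complement component, rose by 4.47 ± 0.37 (adjusted p = 7.96e-05) and by 3.73 ± 0.37 (adjusted p = 0.000214), and Icam1, a leukocyte adhesion molecule, by 2.49 ± 0.27 (adjusted p = 0.000323) and 1.97 ± 0.27 (adjusted p = 0.00112). Fgg, a fibrinogen chain, fell by 2.60 ± 0.30 (adjusted p = 0.000385) and 1.97 ± 0.26 (adjusted p = 0.00102) on the log2 scale. The part of leukocyte RNA in the rises of C3 and Icam1 was not tested.

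Rejecting against naive, the same list had 8 rises and 1 fall among 24 genes in thick ascending limb-like cells (9.24% and 8.07% of all genes), 12 and 1 among 23 in distal tubule-like cells (12.4% and 10.6%), and 12 and 3 among 27 in collecting duct-like cells (11.1% and 8.8%). Icam1 led in collecting duct-like cells, with a rise of 4.36 ± 0.29 (adjusted p = 3.8e-06) in rejecting and 3.39 ± 0.29 (adjusted p = 1.8e-05) in tolerized kidneys, and Prom1, a stem and progenitor cell surface protein, fell by 2.67 ± 0.38 (adjusted p = 0.000771) and 2.24 ± 0.29 (adjusted p = 0.000461) on the log2 scale. Between tolerized and rejecting kidneys the list had 2 calls, with 11 to 14 members at an unadjusted p under 0.05 in each of the 4 classes, and both were falls in thick ascending limb-like cells, of C3 (-3.26 ± 0.58, adjusted p = 0.043) and Tmsb4x, an actin-binding peptide gene that leukocytes express strongly (-2.49 ± 0.45, adjusted p = 0.043). Tmsb4x was at 1684 and 500 per 1e6 UMIs in the rejecting kidneys, where pan-leukocyte markers summed to 485 and 102, and at 246 and 146 in the tolerized kidneys, where they summed to 66.7 and 23.6. C3 was among the leading genes of the macrophage-like cluster 21. The part of leukocyte RNA in the falls of C3 and Tmsb4x was not tested.

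Of 14 genes of the TWEAK and NF-kB pathway, on which the Tnfrsf12a receptor acts, 11 rose and none fell in proximal tubule-like cells of rejecting against naive kidneys (median 0.90, with 22.9% of all genes rising), and 7 rose in tolerized kidneys (0.93, with 17.2%). Among them were Nfkb2, an NF-kB subunit (2.14), and Tnfaip3, an inhibitor of the pathway (2.49). The rises numbered 4 of 12 in thick ascending limb-like, 5 of 13 in distal tubule-like and 3 of 13 in collecting duct-like cells of rejecting kidneys, where 9.24%, 12.4% and 11.1% of all genes rose. Tolerized against rejecting, the list had 3 to 8 genes per class at an unadjusted p under 0.05 and a single call by edgeR, a fall of Cebpb, a transcription factor, in thick ascending limb-like cells (-1.69, adjusted p = 0.028). The part of leukocyte RNA in the differences of this list was not tested.

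Of 15 genes of the p53 pathway, which controls Cdkn1a, 3 rose in proximal tubule-like cells of rejecting kidneys (Btg2 by 3 ± 0.43, Pmaip1 by 1.45 ± 0.27, Bbc3 by 1.74 ± 0.50, with adjusted p of 0.00109, 0.00406 and 0.0234), and 1, Btg2, in tolerized kidneys (2.31 ± 0.41, adjusted p = 0.00423). The 3 of 15 are near the 22.9% of all genes that rose in rejecting against naive kidneys, where the median of the list was 0.33. In tolerized against naive kidneys 17.2% of all genes rose. In thick ascending limb-like cells none of 13 passed in any comparison by edgeR, in which 1 or 2 had an unadjusted p under 0.05. Of 13 genes of the integrated stress response, which induces Gdf15, 11 were tested, and 4 rose and 1 fell in proximal tubule-like cells of rejecting kidneys: Atf3 by 5.14, Ddit3 by 2.06 and Atf4 by 0.98, all transcription factors of this response, passed, and Psat1, an enzyme of serine synthesis, fell by 2.45 on the log2 scale. The 5 calls of 11 are near the 42.2% of all genes called there. In tolerized against naive kidneys 3 rose and 1 fell, where 32.6% of all genes passed (17.2% higher, 15.4% lower). No gene of the list passed between tolerized and rejecting kidneys in any class by edgeR, with 0 to 5 at an unadjusted p under 0.05.

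Of 14 binding partners of the members, 11 were tested, and 4 rose and 2 fell in proximal tubule-like cells of rejecting kidneys, where Itga4, a chain of the VCAM1 receptor that leukocytes carry, had 100 UMIs in the rejecting and 2 in the naive group (adjusted p = 0.000941). Of 13 nephron transcription factors and developmental genes, 12 were tested, and 3 rose and 3 fell there. Both lists had 6 calls, of 11 and of 12 genes, near the 42.2% of all genes called in that comparison. Among the developmental genes, Cdh6, a cadherin of the developing proximal tubule, had 37 UMIs in the rejecting and 1 in the naive group (adjusted p = 0.00383). In the 4 classes no gene of these lists passed edgeR's test between tolerized and rejecting kidneys, where 0 to 4 genes of a list had an unadjusted p under 0.05, except Itga4, which fell by 2.83 on the log2 scale (adjusted p = 0.035) in thick ascending limb-like cells. The part of leukocyte RNA in the Itga4 differences was not tested.

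Genes whose levels went along with those of a member over the 24 sums of kidney and class are given by Pearson's r of log2(CPM + 1), as a description. The closest to Vcam1 were Ubd (0.943), Ciita (0.932) and C3 (0.924), and the closest to Lcn2 were Capg and Plec (0.911 each). Krt18 was closest to Col18a1 (0.966), Krt8 to Icam1 (0.928) and Gdf15 to Topors (0.907). Between members r was 0.823 for Krt8 and Gdf15, 0.791 for Krt18 and Clu, and 0.772 for Vcam1 and Tnfrsf12a. The 24 sums share 6 kidneys and their libraries, so they are not independent points.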

How the data were processed

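The authors aligned the reads to mm10 and counted UMIs per gene and barcode with Cell Ranger, and the deposited matrices hold these raw counts. The version of Cell Ranger is not given in the sources used here. Per the file headers, naive matrices list 28692 genes and the others 31053, and the 28208 genes shared by ID were used.

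Barcodes under 500 UMIs, under 250 genes or over 50% mitochondrial UMIs were left out. Scrublet scores in scanpy 1.11.5 were used to leave out an expected 0.8% of doublets per 1000 barcodes, since its own threshold marked only 0 to 282 cells per kidney. Cells were clustered by Leiden at a resolution of 1.5 on 2500 variable genes (40 components, 20 neighbors), without the 10 genes, and clusters were named by at least 3 marker genes. Clusters stayed unnamed if mostly called doublets, if led by genes of another class, or if low in UMIs without a leading marker. The last rule left out cluster 8, which had 4 proximal tubule markers. It held 901 and 171 cells of the rejecting, 230 and 223 of the tolerized and 3 and 0 of the naive kidneys. UMIs were summed per kidney and class and tested in 1 fit over 6 kidneys with edgeR 4.0.16 (quasi-likelihood, filterByExpr, TMM), adjusting p over all genes by Benjamini-Hochberg. The difference between classes was tested in a fit over 24 sums with the kidney as a block. Cells thinned to 1000 UMIs exclude shallower ones. The members and lists were chosen with earlier results of these data known. Named genes are the 10 members and, per list, at most 4 with the smallest adjusted p in the class and comparison described.

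Intervals are exact at 95%, and the floor for a count of 0 is 3 UMIs, and both cover counting error only. Alternatives were DESeq2 1.42.0, size factors, no filter, a replicate block, doublets kept, 1000 UMIs, 20% mitochondrial UMIs, no mitochondrial genes, a resolution of 0.8, no cells with leukocyte marker UMIs, transplanted kidneys only, principal cell clusters only and each kidney left out. The leukocyte markers of that setting were all pan-leukocyte, T cell, macrophage and neutrophil markers. A cell with few UMIs meets this rule more easily, and the depth of the cells kept is not given here. Tested on simulated data for tolerized against rejecting kidneys, the fit called 88.8% of 4-fold and 44.3% of 2-fold changes in proximal tubule-like cells (12373 genes). The simulated counts gave every gene the trended spread and no difference between naive and rejecting kidneys. In the real data the spread also varied between genes, so these shares can be too high for them.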

Additional observations from a re-analysis of the deposited data

Results flagged for a closer look

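The change of a gene against another group differed between proximal tubule-like cells and another class in 12 cases, each by the test of the difference itself (edgeR, FDR 0.05, on the log2 scale, proximal tubule-like minus other). Lcn2 differed from distal tubule-like cells between tolerized and rejecting kidneys (4.7, adjusted p = 0.00386), where the change itself was 0.49 in proximal tubule-like and -4.35 in distal tubule-like cells, and between rejecting and naive kidneys (-11.66, adjusted p = 0.00517). The latter size depends on the prior count, since naive distal tubule-like cells held no UMI of Lcn2, and it was lost without the first naive kidney (-11.54, adjusted p = 0.127). Cdkn1a differed from distal tubule-like cells in rejecting (2.69) and tolerized kidneys (1.42) against naive kidneys, and from collecting duct-like cells in both (2.04 and 2.39). Gdf15 (1.63 and 1.48), Clu (-1.64 and -2.11) and Krt8 (-0.78 and -0.77) differed from collecting duct-like cells in rejecting and tolerized kidneys against naive kidneys. Both comparisons share the naive kidneys, whose difference in strain and age cannot be told apart from transplantation.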

How the results depend on the processing

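Of 1667 values of single genes under an alternative, 1463 kept direction and side of the threshold, 88 lost and 66 gained a call, 48 changed sign without a call, and 2 called values reversed: Krt18 in proximal tubule-like cells of rejecting against naive kidneys (-0.34 without cells holding leukocyte marker UMIs) and Gdf15 in thick ascending limb-like cells of tolerized against naive kidneys (-0.18 with at most 20% mitochondrial UMIs). The cause was not tested.

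Members passing tolerized against rejecting in proximal tubule-like cells were 0, and became 3 with DESeq2, 4 with no filter and 0 to 4 with 1 kidney left out. In thick ascending limb-like cells the 3 became 1 with doublets kept (Gdf15), 0 without cells holding leukocyte marker UMIs, 1 with transplanted kidneys only (Gdf15) and 0 to 3 with 1 kidney left out. In distal tubule-like cells the 0 became 1 with DESeq2, 4 with no filter, 1 with doublets kept, 1 with at most 20% mitochondrial UMIs, 1 without cells holding leukocyte marker UMIs and 0 to 2 with 1 kidney left out. In collecting duct-like cells the 0 became 4 with no filter and 0 to 1 with 1 kidney left out. With no filter edgeR's prior degrees of freedom became infinite, which by construction gives every gene the trended spread. In that setting 725 of all 18653 genes passed tolerized against rejecting in proximal tubule-like cells. The counts were 367 of 16445 in distal tubule-like and 314 of 17092 in collecting duct-like cells. For the other alternatives, also those quoted above for single genes, the share of all genes called is not given here. The counts above therefore do not show whether members stood out from all genes in those settings.

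Tolerized against naive, the 6 members in proximal tubule-like cells ranged from 2 to 7 with 1 kidney left out, the 4 in thick ascending limb-like cells from 1 to 4 (1 with at most 20% mitochondrial UMIs), the 4 in distal tubule-like cells from 1 to 5 (2 with at most 20% mitochondrial UMIs), and the 4 in collecting duct-like cells from 0 to 5 (2 without cells holding leukocyte marker UMIs). Rejecting against naive, the 6 in collecting duct-like cells ranged from 2 to 6 (3 without cells holding leukocyte marker UMIs). The 12 differences between classes became 26 with no filter and 5 to 15 with 1 kidney left out. Where a group had 1 kidney left, it was assumed to vary like the others.

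The labels do not tie the replicate numbers to the 2 experiments of the study's supplement, and deviations of same-numbered kidneys correlated between -0.122 and 0.0884. With the replicate block, 2 members passed tolerized against rejecting in distal tubule-like cells, Lcn2 and Gdf15. With 2 kidneys per group and 203 to 468 thick ascending limb-like cells per kidney, many small changes could be missed. On simulated data with the trended spread for every gene, the fit called 46% of 2-fold and 91.8% of 4-fold changes in this class.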
